A study of Mus musculus with 6 samples.

Results

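Purine and one-carbon synthesis enzymes were described as 10 genes, Ppat, Paics, Gart, Pfas, Adsl, Atic, Impdh2, Gmps, Shmt2 and Mthfd2, out of 31053 genes counted. Each gene was found as a single row of the deposited matrices by its symbol, and the genes were chosen by their levels across these cell states (S-phase, Myc-positive, other GC and plasma-lineage cells), seen in an earlier analysis of the same libraries. The values by cell state are therefore a description without a test. The 6 droplet single-cell RNA-seq libraries came from mouse spleen after immunization with sheep red blood cells and were labelled as germinal center (GC) B cells. In 3 libraries the label was Cgamma1-Cre WT Control, called WT here, and in 3 libraries it was Cgamma1-Cre Smc3 +/-, called Smc3 +/- here. Mice of both groups carried Cgamma1-Cre, a recombinase driven from the Ighg1 locus that acts in B cells once they are activated, so other spleen cells are not deleted by design. Smc3 encodes an ATPase of the cohesin ring, which holds chromatin loops, and the +/- label stands for loss of a single floxed allele. Neither the strain background of the sequenced mice nor their age was given in the labels.

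De novo purine synthesis builds inosine monophosphate (IMP) on phosphoribosyl pyrophosphate, and IMP is then turned into AMP or GMP. The pathway uses glycine, and it takes formyl groups from the folate-bound one-carbon pool, which mitochondrial enzymes fill from serine. Dividing lymphocytes rely on both pathways, the MYC transcription factor is known to bind several of their genes, and drugs that block IMP dehydrogenase suppress lymphocyte growth.

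In the annotation of the mouse genome build GRCm38 (GENCODE M21), Ppat lies at chr5:76913249-76951578 on the minus strand and Paics at chr5:76951307-76967509 on the plus strand. The 5′ ends of these neighbours overlap by 272 bases, and their 3′ ends, which the 3′ libraries count, lie at opposite ends of the pair. The other members lie apart from each other on chromosomes 1 (Atic), 3 (Gmps), 6 (Mthfd2), 9 (Impdh2), 10 (Shmt2), 11 (Pfas), 15 (Adsl) and 16 (Gart). RefSeq promoter windows of GRCm38.p6, each holding 250 bases before and 50 bases after the start site, matched 9 of the 10 members. The canonical E-box CACGTG, a palindrome that MYC with its partner MAX can bind, was read once on both strands in 3 of these 9 windows, and in 2349 of all 32851 windows (7.15%). Distances below are to RefSeq start sites, which can differ from GENCODE. In GENCODE M21 Impdh2 starts at chr9:108560286, so its E-box lies inside the annotated gene. The GENCODE start of Atic, chr1:71557150, falls within its E-box. The Mthfd2 window, chr6:83317555-83317854, lies inside that gene, whose 5′ end is at 83325908. The matches are shown because Paics, Atic and Impdh2 are members with levels given below, with the E-box in capitals and its flanks in lower case, 5′ to 3′ on the plus strand.
Paics, chr5:76951087-76951116, starting 203 bases before the start site and inside the Ppat gene: cgcctcggaaagCACGTGgagggacctgct
Atic, chr1:71557137-71557166, starting 7 bases before the start site: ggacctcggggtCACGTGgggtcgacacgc
Impdh2, chr9:108560314-108560343, starting 110 bases before the start site: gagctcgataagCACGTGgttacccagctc
For Atic, whose E-box lies closest to the start site, the window is printed from its first base to the E-box, chr1:71556906-71557154.
Atic upstream: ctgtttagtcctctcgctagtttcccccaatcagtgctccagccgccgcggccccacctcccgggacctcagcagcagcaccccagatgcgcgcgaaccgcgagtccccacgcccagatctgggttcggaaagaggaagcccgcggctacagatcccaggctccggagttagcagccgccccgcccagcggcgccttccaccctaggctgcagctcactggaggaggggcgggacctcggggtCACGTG
A match is a description of letters only, and whether any factor bound there was not measured.

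The libraries held 22939 barcodes with 5223325 to 35354257 unique molecular identifier (UMI) counts each, and 20847 cells were kept, 1013 to 4971 per library. After clustering, 15679 cells were GC B-like by their marker genes and 2068 belonged to the plasma lineage, either plasmablast-like (PB-like) or plasma cell-like (PC-like). The library labelled Smc3 +/- replicate 2 stood apart. The share of immunoglobulin UMIs was 51.9% there and 2.37% to 3.90% elsewhere, and it gave 1746 of the plasma-lineage cells but only 481 GC B-like cells. Some results that rest on it are therefore also given without it, and the other plasma-lineage values include it. Any pair of libraries shared 4 to 43 barcodes, at most 0.946% of the smaller library. Nothing but the study's count of mice says that the libraries came from separate mice, and if some did not, the p-values below measure a spread that is partly technical.

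GC B-like cells were split by cluster into S-phase and other cells, and by a Myc UMI into Myc-positive cells (at least 1 UMI) and Myc-zero cells. UMIs were summed per library and state and given as CPM, the UMIs of a gene scaled to a total of 1000000 per sum. The states were other GC B-like cells (outside S-phase, Myc zero, 324 to 2979 cells per library), S-phase Myc-zero cells (93 to 1125), Myc-positive cells outside S-phase (53 to 261), S-phase Myc-positive cells (11 to 117) and plasma-lineage cells (34 to 1746). Ratios to the other GC B-like cells of the same library are log2((CPM + 5)/(CPM + 5)), averaged over the 6 libraries. All 4 contrasts share these baseline cells.

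Myc-positive cells outside S-phase held the highest mean level of most members among these 5 states. Of the 10 members, 9 were higher than in other GC B-like cells in all 6 libraries, beside 23.5% of the 6769 genes with a mean of at least 10 CPM, and 0 were lower in all 6 beside 23.5% of those genes. The median ratio of the members was 0.73, from 0.46 for Paics to 1.11 for Gart, and the median of all genes was -0.03. The exception was Pfas, higher in 5 libraries, with only 12 UMIs in Smc3 +/- replicate 2.

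Ppat encodes the amidotransferase that commits phosphoribosyl pyrophosphate to purine synthesis. In other GC B-like cells its level was 37.2, 31.5 and 29.9 CPM in WT replicates 1 to 3 and 31.9, 30.9 and 26.3 CPM in Smc3 +/- replicates 1 to 3. In Myc-positive cells outside S-phase it was 81.1, 76.0 and 65.9 CPM in WT and 69.2, 67.8 and 67.2 CPM in Smc3 +/-. Every Myc-positive value lay above every value of other GC B-like cells, and the mean ratio was 1.07 ± 0.08 (SD, n = 6), a fold of 2.10.

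Gart encodes the trifunctional enzyme that adds glycine and a formyl group and closes the first ring. Other GC B-like cells held 89.3, 69.6 and 66.2 CPM in WT and 93.9, 50.8 and 66.3 CPM in Smc3 +/-. Myc-positive cells outside S-phase held 194, 148 and 158 CPM in WT and 205, 114 and 155 CPM in Smc3 +/-. The libraries differed in level in both states, with Smc3 +/- replicate 2 the lowest in each, yet the ratio within a library varied little, 1.11 ± 0.06 (SD, n = 6).

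Pfas (formylglycinamidine synthase) acts before the first ring closes, and Paics (carboxylase and succinylcarboxamide synthase) and Adsl (adenylosuccinate lyase) act after it. They gave ratios in Myc-positive cells outside S-phase of 0.76 ± 0.51, 0.46 ± 0.22 and 0.64 ± 0.19. Pfas was the thinnest of the members, at 20.7 ± 6.36 CPM in other GC B-like cells and 38.4 ± 8.79 CPM in Myc-positive cells (SD, n = 6). Atic, which adds the last formyl group and closes IMP, moved from 69.0 ± 8.27 to 142 ± 16.6 CPM, a ratio of 0.99 ± 0.27, with no overlap between the states.

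At the branch towards GMP, Impdh2 encodes IMP dehydrogenase and Gmps encodes GMP synthetase. Impdh2 held 254, 263 and 291 CPM in WT and 238, 248 and 252 CPM in Smc3 +/- in other GC B-like cells. In Myc-positive cells outside S-phase it held 398, 445 and 505 CPM in WT and 411, 479 and 444 CPM in Smc3 +/-. The lowest Myc-positive value thus exceeded the highest baseline value, at a ratio of 0.78 ± 0.10, and Gmps stood at 148 ± 4.998 against 96.2 ± 4.50 CPM, a ratio of 0.60 ± 0.08 (SD, n = 6). The mitochondrial one-carbon enzymes Shmt2, a serine hydroxymethyltransferase, and Mthfd2, a methylene-folate dehydrogenase, gave 0.71 ± 0.12 and 0.58 ± 0.23.

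**Figure D1:**
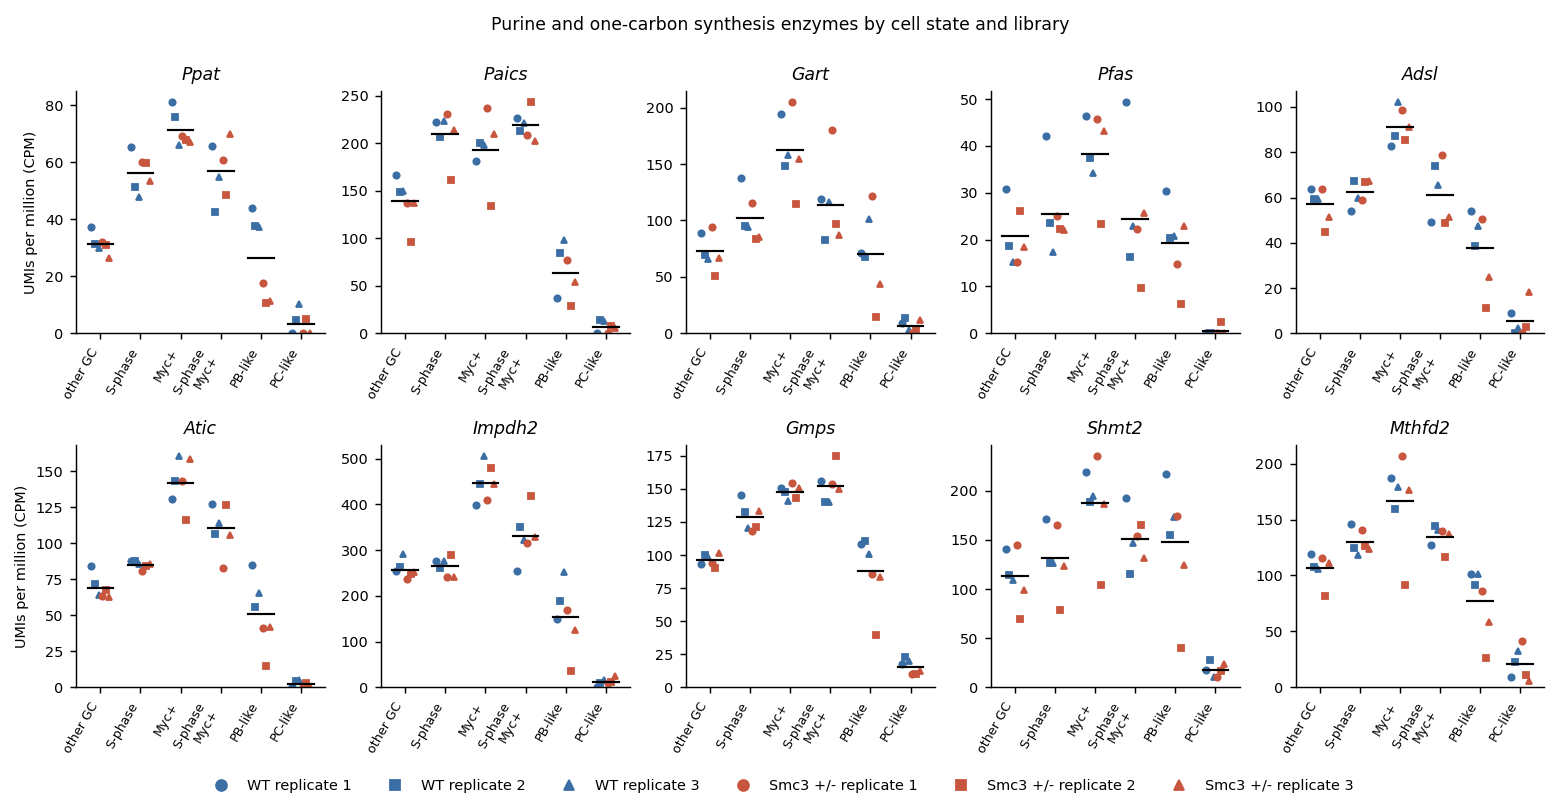
Level in CPM (y axis, linear from 0) of each member in 6 cell states (x axis), with 1 point per library and a bar at the mean of the 6 libraries. WT is blue and Smc3 +/- is red. Of the states plotted, most members are highest in Myc-positive cells outside S-phase (Ppat at 65.9 to 81.1 CPM) and all are lowest in PC-like cells.

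The Myc gate moves with depth. Myc-positive cells outside S-phase had medians of 5965 to 11209 UMIs per cell, against 3178 to 5366 in other GC B-like cells, and 31.1% to 40.3% of them lay in the recycling-like cluster, which was led by Hspd1, Shisa8, Srm and C1qbp. That cluster, whatever the Myc UMI of its cells, held still more of the members, with a median ratio to other GC B-like cells of 0.97, from 0.64 for Paics to 1.36 for Gart. Only 35.5% to 53.1% of the cluster was Myc-positive, and its Myc-zero cells are also part of the baseline. No value over all genes was taken for this ratio. In the recycling-like cluster Impdh2 stood at 481, 512 and 587 CPM in WT and 464, 551 and 493 CPM in Smc3 +/-, above its Myc-positive level in each library. The recycling-like cluster was also the deepest, with a mean of 20460 UMIs per cell against 3196 to 10630 in the other GC B-like clusters, and the part of depth in its ratios was not tested. When each cell was thinned to 2000 UMIs and gated again, the median ratio of the members was 0.32 beside -0.11 for all genes. All 10 means were above 0 and 4 members were higher in all 6 libraries. When cells were thinned but kept their gate from all UMIs, an alternative chosen after seeing the data, the median was 0.72 beside -0.06 for all genes. There, 8 members were higher in all 6 libraries. The share of all genes was not counted after thinning. The new gate held 26 to 91 cells per library, against 53 to 261 from all UMIs.

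S-phase cells without a Myc UMI gave smaller mean ratios for all members but Paics. The median was 0.28 beside -0.001 for all genes, 7 of 10 members were higher in all 6 libraries beside 18.7% of 6753 genes, and 0 were lower in all 6 beside 16.4%. Ppat was the highest of the members. It stood at 65.3, 51.3 and 48.0 CPM in WT and 60.2, 59.9 and 53.3 CPM in Smc3 +/-, above all of its baseline values, and its ratio was 0.76 ± 0.12. Paics and Gart followed at 0.58 ± 0.13 and 0.46 ± 0.15, and Gmps at 0.40 ± 0.12.

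The other 6 members lay closer to the baseline in S-phase. Atic, Mthfd2 and Shmt2 gave 0.29 ± 0.13, 0.27 ± 0.17 and 0.21 ± 0.06, each higher in all 6 libraries. Impdh2 held 277, 260 and 277 CPM in WT and 242, 289 and 242 CPM in Smc3 +/-, which overlapped its baseline values, at a ratio of 0.04 ± 0.11 with 3 of 6 libraries higher. Adsl at 0.12 ± 0.28 and Pfas at 0.23 ± 0.26 also did not keep a direction. With the looser cell filter, under which fewer cells were placed in S-phase clusters, Shmt2 was at -0.06.

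Set side by side, Impdh2 and Paics were the extremes of the ratio between these states. Paics was at 210 ± 25.2 CPM in S-phase Myc-zero cells and 193 ± 34.3 CPM in Myc-positive cells outside S-phase, and its ratio of the second to the first was -0.13. The same ratio was above 0 in all 6 libraries for 8 of the 10 members, with a median of 0.50 and a highest value of 0.74 for Impdh2. Neither the share nor the median of all genes was taken for this pair, so the count is not read as particular to the members.

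S-phase cells with a Myc UMI were the smallest group, with 11 cells in Smc3 +/- replicate 2. Their median ratio was 0.51, and 8 of 10 members were higher in all 6 libraries beside 13.2% of 6706 genes, with 0 lower in all 6 beside 12.2%. Ppat, Paics, Atic and Gmps stood between 0.64 and 0.76 and Adsl at 0.08 ± 0.23. Pfas rested on 1 UMI in Smc3 +/- replicate 2 and 11 to 28 UMIs in the others, and its ratio was 0.11 ± 0.64. Thinning with a new gate left 2 to 29 cells per library and turned the median to -0.40, with 3 members above 0, where the median of all genes was -0.61. Thinning with the gate kept gave 0.64, and the looser cell filter gave 0.10.

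**Figure D2:**
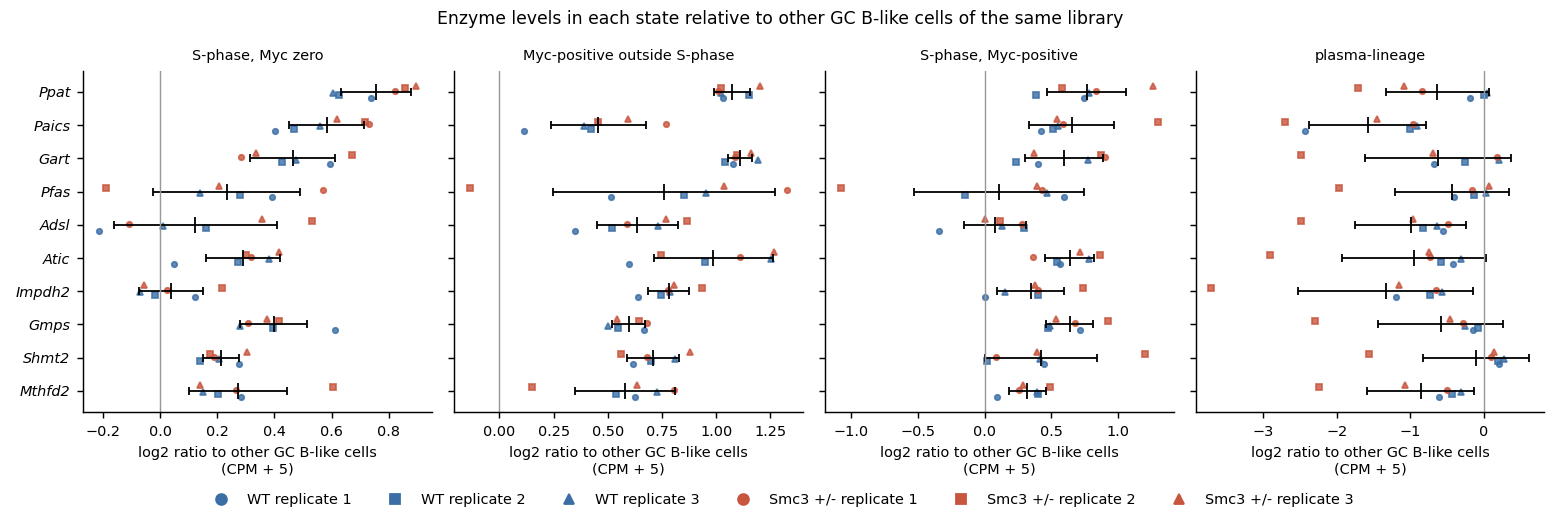
Log2 ratio of each member to other GC B-like cells of the same library, CPM + 5 on both sides (x axes, with a different range in each panel), for 4 states. Points are libraries and black bars are the mean ± SD over 6 libraries. Ratios in Myc-positive cells outside S-phase lie to the right of 0 except Pfas in Smc3 +/- replicate 2, and plasma-lineage ratios of Smc3 +/- replicate 2 lie far to the left of the other libraries.

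Plasma-lineage cells were low in the members on the scale of all UMIs, and this scale holds a large share of immunoglobulin. The median ratio was -0.75 (-0.49 without Smc3 +/- replicate 2) beside -0.78 for all genes. Of the members, 6 were lower in all 6 libraries beside 66.3% of 6338 genes, and 0 were higher in all 6 beside 4.64%. With immunoglobulin UMIs left out of the total, the median was -0.27 beside -0.32 for all genes, 3 members (Paics, Adsl and Impdh2) were lower in all 6 libraries beside 42.7%, and 0 were higher in all 6 beside 13.8%. The members' shares were thus near those of all genes.

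Members differed within the plasma lineage. With immunoglobulin left out, Paics was lowest at -1.08 ± 0.59 and Shmt2 was highest at 0.43 ± 0.36, higher in 5 of 6 libraries (SD, n = 6). Shmt2 held 235, 177 and 179 CPM without immunoglobulin in WT and 195, 59.7 and 146 CPM in Smc3 +/-, and the low value was Smc3 +/- replicate 2. PB-like and PC-like cells held unlike amounts. Immunoglobulin left out, all 10 members had a mean ratio of PB-like to PC-like above 0, from 0.66 to 2.70 with a median of 1.83, and 8 were higher in PB-like cells in all 6 libraries. The share of all genes was not taken for this pair, so these counts are not read as particular to the members. PC-like cells gave 0 to 13 UMIs per member in each library outside Smc3 +/- replicate 2, where 1370 of them gave 50 to 357 UMIs per member. Each library has equal weight in these ratios, so 5 of the 6 rest on few UMIs, and where a library was at 0 UMIs its ratio was set by the pseudocount.

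Impdh2 has a paralog, Impdh1, which catalyses the same step. Among pathway genes with a mean of at least 10 CPM over both states, Impdh1 had the highest ratio in plasma-lineage cells. It passed that mean only through the plasma-lineage cells where it was high, so its rank is a description. Impdh1 held 10.6, 6.38 and 7.20 CPM in WT and 8.27, 4.80 and 6.43 CPM in Smc3 +/- in other GC B-like cells, on all UMIs. In plasma-lineage cells it held 66.4, 56.5 and 52.6 CPM in WT and 63.6, 9.06 and 49.6 CPM in Smc3 +/-, higher in 6 of 6 libraries at a ratio of 2.002 ± 0.73. Impdh2 in the same cells held 108, 156 and 194 CPM in WT and 149, 14.5 and 110 CPM in Smc3 +/-, lower in 6 of 6 libraries at -1.34 ± 1.19, or -0.86 without Smc3 +/- replicate 2. On all UMIs, 66.3% of 6338 genes were likewise lower in all 6 libraries, and 4.64% were higher. Levels are not compared between the paralogs, whose counted 3′ ends differ, and reads from stretches alike in both could be split or dropped in counting.

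**Figure D3:**
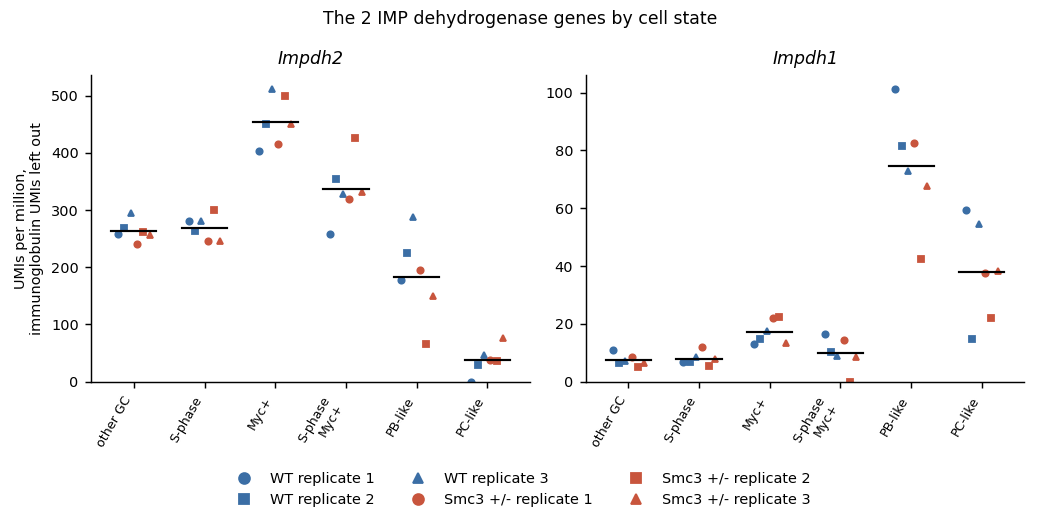
Level in CPM with immunoglobulin UMIs left out (y axes, linear from 0, different ranges) of Impdh2 and Impdh1 in 6 cell states, 1 point per library, bar at the mean. Impdh2 is highest in Myc-positive cells outside S-phase and lowest in PC-like cells, while the Impdh1 points of PB-like cells lie above those of all 4 GC states.

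Of 34 other genes of purine, pyrimidine, folate and serine synthesis listed for context, 25 had at least 10 CPM in other GC B-like cells, a filter chosen after seeing the data so that no gene entered the counts through the state where it was high. In Myc-positive cells outside S-phase, 13 of 25 were higher in all 6 libraries and 3 lower, beside 22.3% and 24.7% of 6776 genes. A mean of at least 10 CPM over both states also admitted Impdh1, Fpgs, Slc19a1 and Cad, which passed through the Myc-positive cells, and 17 of 28 were then higher. By that mean the highest ratios were those of Slc19a1, the reduced folate carrier, at 1.48 ± 0.72, and Shmt1, the cytosolic counterpart of Shmt2, at 1.40 ± 0.30. The lowest were Dck, a deoxynucleoside salvage kinase, at -0.87 ± 0.19 and Prps2, a phosphoribosyl pyrophosphate synthetase, at -0.59 ± 0.27.

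In S-phase Myc-zero cells the list moved less, with 7 of 25 higher in all 6 libraries and 1, Gcsh, lower, beside 17.9% and 17.2% of all genes. Umps, which makes UMP, gave 0.87 ± 0.09. Mtfmt, which formylates mitochondrial initiator tRNA, gave -0.31 ± 0.37 and Gcsh, a glycine cleavage protein, gave -0.28 ± 0.24. In S-phase Myc-positive cells 7 of 25 were higher in all 6 libraries and 0 lower, beside 12.7% and 12.9% of all genes, and Umps gave 0.97 ± 0.18. The lowest there were Mtfmt at -0.26 ± 0.48 and Dhodh, dihydroorotate dehydrogenase, at -0.19 ± 0.92.

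In plasma-lineage cells 0 of these 25 genes were higher in all 6 libraries and 12 were lower, beside 3.01% and 69.1% of all genes. Impdh1, higher in all 6 libraries, passed only a mean over both states. Adssl1, an adenylosuccinate synthase, followed Impdh1 at 0.64 ± 0.63. Dck at -2.31 ± 0.44 and the purine nucleoside phosphorylase Pnp at -2.09 ± 0.49 were lowest, on all UMIs. Dck was the lowest gene of the list in both Myc-positive cells outside S-phase and the plasma lineage.

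The members resembled each other across the 30 library-by-state sums. After centring log2(CPM + 5) within each library, each member's Pearson correlation with the mean of the other 9 ran from 0.79 for Pfas to 0.98 for Atic. The genes outside the list with the closest pattern were Phb2, Fbl, Cnbp, Gar1 and Serbp1, with correlations of 0.984 to 0.989 to the mean of the 10 members. Phb2 encodes a mitochondrial prohibitin, and Fbl and Gar1 encode nucleolar proteins that modify ribosomal RNA. Myc itself was at 0.48. These sums share libraries, depth and the immunoglobulin share of the plasma lineage, so the correlations carry no test.

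For the genotype comparison, sums per library were fitted with edgeR's quasi-likelihood test across all genes in 5 cell classes, and p-values were adjusted over all genes tested (Benjamini-Hochberg). Smc3 itself stood at 148, 164 and 154 normalized CPM in WT and 143, 124 and 171 in Smc3 +/- GC B-like cells, a log2 fold change of -0.08 (SE 0.14, adjusted p = 0.99999). No drop in Smc3 was thus detected. The counted 3′ tags were not placed against the deleted exon, and whether loss of that exon lowers the whole transcript was not tested. The labels were not checked by other means, so the groups are called libraries labelled WT and Smc3 +/-.

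No member passed an adjusted p of 0.05 by edgeR in any class, and neither did any other gene: 0 of 11034 genes in GC B-like cells (0%), 0 of 9644 in S-phase, 0 of 8887 in Myc-positive, 0 of 10429 in other GC B-like and 0 of 5917 in plasma-lineage cells. At an unadjusted p under 0.05 there were 185, 214, 184, 170 and 248 genes, of which 0, 0, 0, 0 and 4 were members. DESeq2 called 2, 1, 0, 2 and 0 genes at an adjusted p of 0.05, and no member among them. Of the pathway list, 31, 29, 29, 31 and 28 genes were tested and 0 passed in either direction by edgeR.

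In GC B-like cells the members differed little between the groups. Their median log2 fold change (Smc3 +/- over WT) was -0.03 in GC B-like cells, -0.04 in S-phase, 0.02 in Myc-positive and -0.08 in other GC B-like cells, where the median of all genes lay between -0.01 and 0. In GC B-like cells the 95% interval was narrowest for Adsl, from -0.26 to 0.24, and widest for Pfas, from -0.61 to 0.48, so differences of a smaller size could not be seen. Paics in other GC B-like cells was the only member of these 4 classes whose groups did not overlap. It stood at 153, 150 and 152 normalized CPM in WT and 127, 110 and 139 in Smc3 +/-, a log2 fold change of -0.27 (SE 0.13, adjusted p = 0.99978), beside 4.71% of 10429 genes lower in all 3 Smc3 +/- libraries.

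In plasma-lineage cells all 10 members had a lower fitted level in the libraries labelled Smc3 +/-, and none passed the adjusted threshold. The median log2 fold change of the members was -0.54 beside 0.02 for all genes, and that of the pathway list was -0.42 (-0.18 without Smc3 +/- replicate 2 and -0.67 without Smc3 +/- replicate 1). The groups did not overlap for 5 members, Ppat, Atic, Gmps, Shmt2 and Mthfd2, beside 5.81% of 5917 genes with all 3 Smc3 +/- libraries lowest. The members share these 6 libraries, so their count adds no replicates.

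Ppat held 27.9, 26.6 and 26.0 normalized CPM in WT plasma-lineage cells and 11.04, 17.6 and 8.15 in Smc3 +/-. The lowest WT library was above the highest Smc3 +/- library, at a log2 fold change of -1.04 (SE 0.34, adjusted p = 0.828). These levels rest on 13, 36 and 49 UMIs in WT and 12, 148 and 11 UMIs in Smc3 +/-. Atic, at 53.7, 39.2 and 43.1 against 25.8, 13.8 and 29.6 normalized CPM, gave -1.01 (SE 0.34, adjusted p = 0.828). Mthfd2 gave -0.58 (SE 0.22) and Gmps -0.51 (SE 0.22), with the same adjusted p. Without Smc3 +/- replicate 2, Mthfd2 gave -0.47 (SE 0.21) and Gmps -0.35 (SE 0.20).

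The makeup of the plasma lineage differed between the libraries. PB-like cells were 70.6%, 78.8% and 68.8% of plasma-lineage cells in WT and 83.3%, 21.5% and 82.9% in Smc3 +/-, so that replicate 2 lay far below every WT library and the other Smc3 +/- libraries above them. Immunoglobulin took 66.3% of plasma-lineage UMIs in Smc3 +/- replicate 2 and 21.0% to 30.9% elsewhere. Without that library the median of the members was -0.34 (-0.85 without Smc3 +/- replicate 1), all 10 were still below 0, and Ppat stood at -1.48 (SE 0.31, adjusted p = 0.620) and Atic at -0.65 (SE 0.23, adjusted p = 0.995) by edgeR. In PB-like cells alone, an alternative chosen after seeing the data, the median was -0.58 beside -0.001 for all genes, all 10 were below 0, and Ppat stood at -1.21 (SE 0.30, adjusted p = 0.710). There, Ppat held 52.6, 44.6 and 42.7 CPM without immunoglobulin in WT and 20.6, 19.4 and 13.8 CPM in Smc3 +/-. Smc3 +/- replicate 2 stood apart among PB-like cells too, with immunoglobulin at 44.7% of UMIs against 12.2% to 17.2% and the proliferation gene Mki67 at 77.6 CPM against 142 to 237. Each of these libraries other than Smc3 +/- replicate 2 held 24 to 68 PB-like cells, and the part that makeup, cell numbers and depth have in the difference was not tested.

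**Figure D4:**
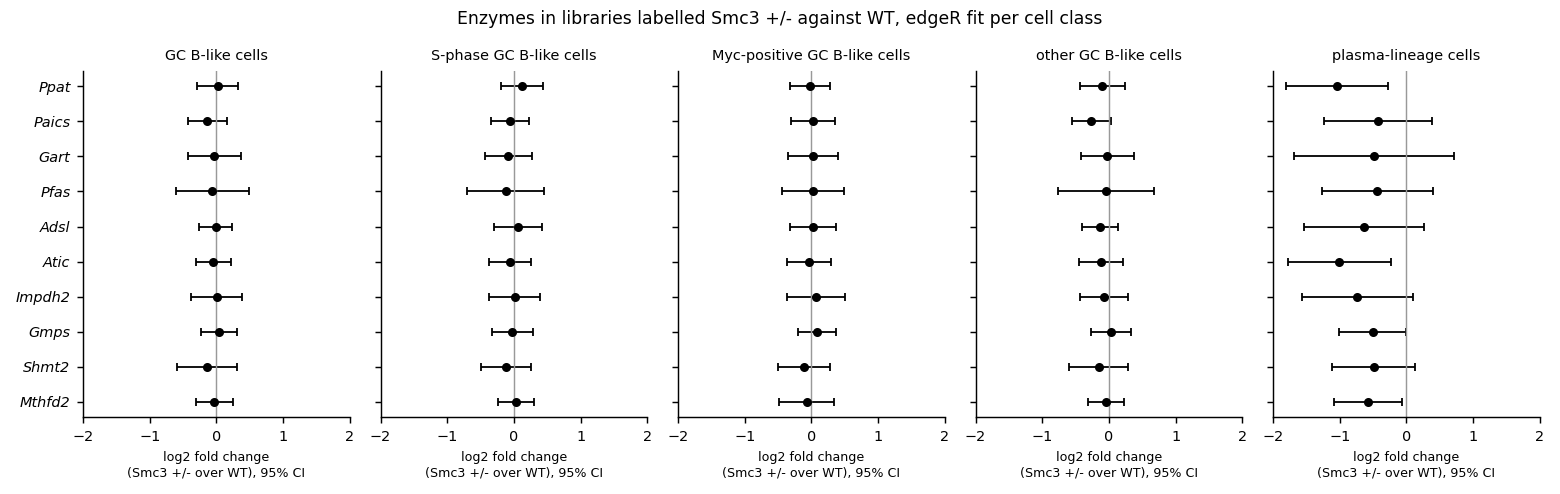
Log2 fold change (x axis, libraries labelled Smc3 +/- over WT) of each member in 5 cell classes, with 95% confidence intervals from the edgeR fit on 3 against 3 libraries. Intervals in the 4 GC B-like classes all include 0, all 10 points of plasma-lineage cells lie left of 0, and no member passed the adjusted threshold.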

How the data were processed

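Droplet single-cell 3′ RNA-seq (10x Genomics) was analysed in 3 WT and 3 Smc3 +/- libraries. The authors deposited raw UMI counts per gene and barcode, made with Cell Ranger on mm10, and the submitters' notes also name R 4.0.2 and Seurat 4.0.0. Further wild-type mice described in the study are not analysed here. Cells with at least 500 genes and at most 10% mitochondrial UMIs were kept, and 721 predicted doublets were removed (Scrublet in scanpy 1.11.5). Libraries were integrated and clustered with Seurat 5.3.0 (2000 variable genes, leaving out immunoglobulin, mitochondrial, ribosomal protein and haemoglobin genes, the members, the pathway list and Myc, 30 components, resolution of 0.5), and clusters were named from marker lists by a rule written after the clusters had been seen. UMI counts were summed per library and state. Genotype was tested with edgeR 4.0.16 (TMM, low-count filter, quasi-likelihood F-test) in R 4.3.3, with DESeq2 1.42.0 as an alternative, and the fit was tested on simulated counts. States were compared as log2 ratios of CPM plus a pseudocount of 5, without a test. Depth ran from 5223325 to 35354257 UMIs per library, and thin states rest on a few UMIs, which limits their precision.

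The members and lists were chosen with earlier results of these data known. All 10 members entered every comparison, but single values are not printed for each member in each of them. Of the pathway list, the 2 highest and 2 lowest per state contrast with a mean of at least 10 CPM were named. The 5 genes of at least 20 CPM most like the members were also named. Values of 1 gene of the pathway list are not reported here. Replicate numbers are shared between the groups. Across genes, the deviation of each library from the mean of its group was correlated between libraries of the same number. The values were 0.245, 0.124 and 0.174 in S-phase and 0.244, 0.101 and 0.124 in Myc-positive cells. Libraries of different numbers were not compared in this way, and the labels do not say that the numbers pair the libraries. Whether they are paired is not known. The main fits leave the numbers out, and a replicate block is given as an alternative. Alternatives covered scaling, filters, thinning, resolution, doublets, the replicate block and each library left out.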

Additional observations from a re-analysis of the deposited data

How the results depend on the processing

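Libraries were shallow in thin states, and a Myc UMI was found more often in deeper cells, so the Myc gates carry depth. By state, the median ratio of the members kept its direction in every alternative for 3 of the 4 contrasts, and in S-phase Myc-positive cells it fell from 0.51 to 0.10 with the looser cell filter and to -0.40 after thinning. The median went to 0.32 in Myc-positive cells outside S-phase after thinning and to 0.38 in S-phase Myc-zero cells thinned with the gate kept, the latter chosen after seeing the data. Single members turned in S-phase Myc-positive cells. After thinning, 3 of 10 were above 0. The others were Paics at -0.40, Gart at -0.26, Pfas at -0.39, Adsl at -0.71, Atic at -0.43, Gmps at -0.95 and Mthfd2 at -0.60. With the looser filter Gart was at -0.010, Impdh2 at -0.17 and Mthfd2 at -0.65, and Shmt2 in S-phase Myc-zero cells at -0.058. The cause was not tested beyond the 2 to 29 cells per library that thinning left.

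By genotype, edgeR called 0 genes in every class. DESeq2 called 2 in GC B-like cells, 1 in S-phase and 2 in other GC B-like cells. Without a low-count filter 4 genes were called in plasma-lineage cells. Leaving out 1 library at a time gave 0 to 1 genes in S-phase and 0 to 1 in plasma-lineage cells, the 1 in both without Smc3 +/- replicate 2, and no member was called. In GC B-like cells, where every member lay near 0, log2 fold changes changed sign. Without a low-count filter Ppat was at -0.0035 and Impdh2 at -0.021, with doublets kept Ppat was at -0.00095, and with the looser filter Adsl was at 0.0028. Over the libraries left out, Ppat ran from -0.060 to 0.087, Gart from -0.21 to 0.080, Pfas from -0.24 to 0.19, Adsl from -0.072 to 0.021, Atic from -0.11 to 0.013, Impdh2 from -0.13 to 0.094, Gmps from -0.0075 to 0.098, Shmt2 from -0.35 to 0.016, Mthfd2 from -0.089 to 0.048 and Smc3 from -0.21 to 0.019.

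Same-numbered libraries correlated at 0.217, 0.068 and 0.204 in GC B-like, 0.199, 0.092 and 0.179 in other GC B-like and 0.161, 0.066 and 0.145 in plasma-lineage cells. The replicate block called 0 genes in every class (263, 301, 281, 247 and 305 genes at an unadjusted p under 0.05). With the block the median of the members was -0.04 in GC B-like, -0.03 in S-phase and -0.01 in Myc-positive cells. It was -0.08 in other GC B-like and -0.66 in plasma-lineage cells. The sign differed from the main fit in Myc-positive cells alone, where the main fit gave 0.02. The block changed no call.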
